A study of Mus musculus with 18 samples.

Results

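The genes described here are 32 mouse genes of fibroblast growth factor (FGF) signalling: 14 paracrine ligands, 3 endocrine ligands, 3 intracellular FGF-related factors, 4 receptors, 6 feedback inhibitors and 2 transcription factors of the ETS family. They were listed by name, and their H3K27me3 was read from the deposited interval lists of 12 libraries, over each gene body with 2.5 kb added on each side. All 32 were found among the 21631 protein-coding genes of the RefSeq gene table on the autosomes and chromosome X, and all lie on autosomes. The mark was measured by bulk CUT&Tag, in which an antibody guides a transposase to the modified histone so that the DNA beside it can be sequenced. The tissue was the medial ganglionic eminence (MGE), a zone of the embryonic ventral forebrain that gives rise to many cortical and striatal interneurons.

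The 4 groups of 3 libraries compared were WT and Ezh2 KO at embryonic day E12.5 and at E15.5. Ezh2 encodes a methyltransferase that places H3K27me3. The fathers were Nkx2.1-CreC/C with Ezh2F/+ and the mothers Ai9F/F with Ezh2F/+, so every embryo, WT included, is Nkx2.1-CreC/+ and carries 1 Ai9 reporter allele, and KO denotes the loss of Ezh2 on that background. The Cre acts in cells with Nkx2.1 expression and their descendants, so cells of the dissected tissue outside that lineage keep Ezh2. MGEs of embryos of 1 genotype were pooled where applicable. The whole MGE was taken at E12.5, whereas at E15.5 the dissection was guided by the fluorescent reporter, so that stage and dissection cannot be told apart. The 6 heterozygous samples of the series were not analysed here.

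FGF ligands bind receptor tyrosine kinases at the cell surface and act largely through the Ras and MAP kinase cascade, which turns on the ETS factors Etv4 and Etv5 and inhibitors such as the Sprouty proteins and the phosphatase Dusp6 that damp the same cascade. In the embryonic forebrain, Fgf8 and Fgf17 from the rostral midline pattern the telencephalon, and Fgfr1, Fgfr2 and Fgfr3 are used by progenitors. H3K27me3 is laid down by the Polycomb complex PRC2, of which Ezh2 is a catalytic subunit, and typically covers the control regions of developmental genes that are silent in a given cell. In a bulk library, fewer cells with the mark and less mark per cell cannot be told apart.

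A gene is called here in a library when at least 1 deposited interval overlaps its body or the 2.5 kb beside it by at least 1 bp. Its count is the sum of the deposited counts of those intervals. The normalised count divides that sum by the depth of the library relative to the mean depth of the 12 libraries. Depth is the mean count per 200 bp window, recovered from the deposited scores. Depth ranged from 0.117 to 0.698 in E12.5 WT, from 0.212 to 0.272 in E12.5 KO, from 0.0751 to 0.15 in E15.5 WT and from 0.179 to 0.346 in E15.5 KO. A gene with no interval has no count, which is not a count of 0. Ezh2 itself had no interval in any library, so the lists do not measure its deletion. Chromosome X held between 18.1% and 24.5% of the covered bases in the 3 E12.5 KO libraries and in E12.5 WT replicate 3, and at most 5.33% in the other 8. Of 8 MGE genes, 7 had an interval in all 12 libraries, as had 6 of 6 genes of the pallium, 2 of 5 vascular and blood genes and 0 of 3 microglial genes, and Pecam1, Cdh5 and Gata1 had none. These lists give where the mark lies and not expression, so they do not identify the cells.

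H3K27me3 covered much of the family. Of the 32 genes, 16 (50.0%) were called in all 12 libraries, 10 in some and 6 in none (18.8%). Among all 20665 autosomal genes, 12.1% were called in all 12 libraries and 61.2% in none. Between 19 genes (E15.5 WT replicate 1) and 25 genes (E15.5 KO replicate 3) were called per library. The 6 E12.5 libraries shared 20 called FGF genes (62.5%, against 15.2% of all genes), and the 6 E15.5 libraries shared 17 (53.1%, against 13.0%).

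Of the 16 genes called throughout, 12 were among the 20 ligand-family genes. Of the 14 paracrine ligands, 9 were called in every library: Fgf3, Fgf4, Fgf5, Fgf8, Fgf9, Fgf10, Fgf17, Fgf18 and Fgf20. Fgf2 was called in 10 libraries, Fgf6 and Fgf22 in 1 each, and Fgf1 and Fgf7 in none. Among the endocrine ligands, which reach distant organs and need Klotho co-receptors, Fgf15 and Fgf21 were called in all 12 libraries and Fgf23, a regulator of phosphate, in 6. Of the intracellular factors, which bind sodium channels in neurons and are not secreted, Fgf11 was called in all 12, Fgf12 in 11 and Fgf14 in none.

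Among the receptors, 1 of 4 was called throughout. Fgfr3 was called in all 12 libraries, Fgfr4 in 11, Fgfr2 in 10 and Fgfr1 in none. Of the 6 inhibitors, Spry4 was called in all 12, Dusp6 in 11, Spry2 in 6 and Spry1 in 3, while Spred1 and Spred2, whose products restrain Ras activation, had no interval in any library. The pathway's ETS factors Etv4 and Etv5 were called in all 12.

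**Figure D1:**
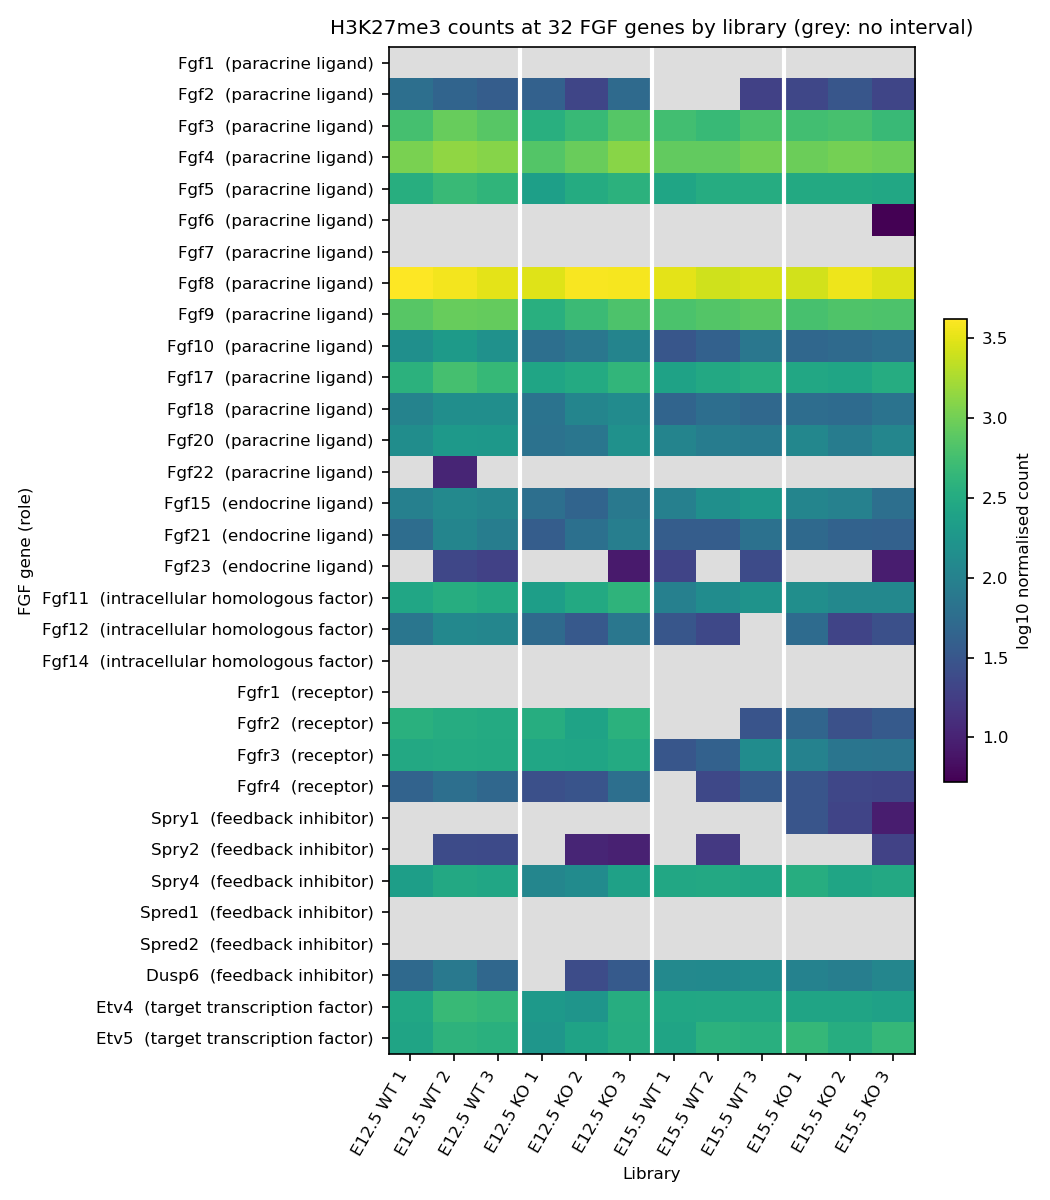
Log10 normalised H3K27me3 count of the 32 FGF genes (rows, with role) in the 12 libraries (columns, white lines between the 4 groups); grey cells have no interval. Counts grow with gene and interval length, so colours compare libraries within a row, and the row of Fgf8 stays at the top of the scale in all 12 libraries while 6 rows are grey throughout.

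For a density, the count of each interval was shared out by its overlap with the gene body and flanks. The shared-out count was then divided by relative depth and by the covered kb. This reduces but does not remove the effect of interval length. On that scale Fgf8 had the densest mark of the 16 genes called in every library. Its mean over the 12 libraries was 169.5 shared-out, depth-scaled counts per covered kb. Fgf4 followed at 103.7, Fgf9 at 64.3, Fgf3 at 58.8 and Fgf5 at 46.9, so that the 5 densest genes were all paracrine ligands. The sparsest were Fgf18 at 13.8, Fgf21 at 14.1 and Fgfr3 at 16.9. Spry4 (29.0), Etv4 (26.5) and Etv5 (18.9) lay between them.

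The intervals sat in stretches that often reached beyond the gene. The merged interval at Fgf8 was chr19:45713801-45750600 (GRCm38, as all coordinates here), which also spans Npm3 and part of Oga, and its intervals covered the whole of the Fgf8 gene body and flanks, 11.5 kb in every library. Fgf3 and Fgf4, neighbours on chromosome 7, lay in 1 merged stretch, chr7:144832001-144870200, and Fgf15 beside them in chr7:144888201-144900600. No interval of a library touched more than 1 FGF gene. The stretches at Fgf11 (chr11:69791601-69813800), Fgf17 (chr14:70631201-70649800), Fgf21 (chr7:45614201-45620400) and Spry4 also held other genes, so their counts are not of the FGF gene alone.

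Promoter sequences from RefSeq (GRCm38.p6), running from 250 bases before the annotated start to 50 bases after it, were matched for 24 of the 32 genes. Fgf1, Fgf8, Fgf15, Fgf17, Fgf20, Fgfr1, Spry4 and Etv4 had no entry. Each promoter was searched for the dinucleotide CG, the site of DNA methylation, which reads the same on both strands. At least 1 CG was present in 95.5% of the 21045 promoters of the table, with a median of 13 per promoter. For an FGF gene with more than 1 start, the promoter with the most CG was taken, whereas the median of 13 counts every promoter. The starts left out had 26 CG at Fgfr3, 19 at Etv5 and 18, 22 and 29 at Fgf12, so the medians that follow depend on that choice. FGF genes called in all 12 libraries had a median of 21 CG (range 5 to 47, 10 genes). Those called in some libraries had 19.5 (4 to 34, 10 genes) and those called in none 14.5 (11 to 40, 4 genes). These ranges overlap. The promoters of the 4 genes that fell between the stages, of Fgfr2 and of Spry1 are printed because the comparisons below turn on them. They show how far CG content varied among the genes that moved. Capitals mark each CG.
Fgfr3, upstream start, chr5:33721474-33721773, plus strand: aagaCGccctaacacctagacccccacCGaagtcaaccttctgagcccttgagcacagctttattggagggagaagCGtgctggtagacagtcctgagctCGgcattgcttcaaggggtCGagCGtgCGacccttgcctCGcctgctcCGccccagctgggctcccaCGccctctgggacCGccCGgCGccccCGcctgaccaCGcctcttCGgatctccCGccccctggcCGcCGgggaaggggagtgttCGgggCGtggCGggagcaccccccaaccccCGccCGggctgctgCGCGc
Fgfr3, downstream start, chr5:33722056-33722355, plus strand: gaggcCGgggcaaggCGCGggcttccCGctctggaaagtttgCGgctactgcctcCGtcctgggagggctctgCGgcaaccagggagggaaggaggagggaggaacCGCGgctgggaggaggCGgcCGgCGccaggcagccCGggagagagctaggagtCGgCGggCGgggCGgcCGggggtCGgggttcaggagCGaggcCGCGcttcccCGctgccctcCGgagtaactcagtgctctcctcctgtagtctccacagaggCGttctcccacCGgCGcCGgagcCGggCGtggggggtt
Fgfr2, chr7:130266759-130267058, minus strand: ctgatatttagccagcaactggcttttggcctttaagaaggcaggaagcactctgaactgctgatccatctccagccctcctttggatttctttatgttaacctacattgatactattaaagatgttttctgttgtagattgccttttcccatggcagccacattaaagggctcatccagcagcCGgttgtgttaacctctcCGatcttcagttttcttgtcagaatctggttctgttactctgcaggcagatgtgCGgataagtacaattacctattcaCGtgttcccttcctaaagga
Fgf18, chr11:33147351-33147650, minus strand: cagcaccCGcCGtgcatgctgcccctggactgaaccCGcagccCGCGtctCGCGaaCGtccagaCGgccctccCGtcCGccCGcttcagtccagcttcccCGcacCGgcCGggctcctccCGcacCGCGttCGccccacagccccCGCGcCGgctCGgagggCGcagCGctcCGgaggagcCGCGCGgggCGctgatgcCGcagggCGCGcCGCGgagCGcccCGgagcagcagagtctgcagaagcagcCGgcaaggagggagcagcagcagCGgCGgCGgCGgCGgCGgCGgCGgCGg
Fgf11, chr11:69802231-69802530, minus strand: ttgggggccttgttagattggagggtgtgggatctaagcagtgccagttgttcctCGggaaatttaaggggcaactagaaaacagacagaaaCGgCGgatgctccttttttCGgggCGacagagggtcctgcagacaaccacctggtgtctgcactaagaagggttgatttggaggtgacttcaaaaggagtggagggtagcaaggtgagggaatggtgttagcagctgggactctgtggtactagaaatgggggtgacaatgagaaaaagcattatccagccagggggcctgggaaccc
Fgf10, chr13:118714449-118714748, plus strand: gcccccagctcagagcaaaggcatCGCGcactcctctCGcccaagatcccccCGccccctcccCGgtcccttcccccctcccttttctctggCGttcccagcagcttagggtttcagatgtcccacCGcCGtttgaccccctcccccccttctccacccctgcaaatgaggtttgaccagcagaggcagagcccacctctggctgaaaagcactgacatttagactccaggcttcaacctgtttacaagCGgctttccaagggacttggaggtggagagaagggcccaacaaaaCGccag
Spry1, chr3:37639697-37639996, plus strand: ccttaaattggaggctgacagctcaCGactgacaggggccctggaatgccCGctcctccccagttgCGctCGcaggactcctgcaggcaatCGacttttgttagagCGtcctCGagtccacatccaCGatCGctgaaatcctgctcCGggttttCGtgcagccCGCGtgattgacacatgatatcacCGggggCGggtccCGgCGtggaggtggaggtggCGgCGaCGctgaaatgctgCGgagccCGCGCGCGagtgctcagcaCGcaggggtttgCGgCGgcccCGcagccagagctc

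Fgf18 had 47 CG, a number reached by 1.9% of all promoters. Spry1 had 29 (reached by 17.3%), and the Fgfr3 starts had 26 and 30 (22.8% and 15.6%). Fgf10 with 10 CG, Fgf11 with 5 and Fgfr2 with 4 were at or below the usual number, reached by 57.3%, 72.3% and 76.7% of promoters. An interval lay on the Fgf10 promoter in 12 libraries, on both Fgfr3 promoters and the Fgf11 promoter in 11, on the Fgf18 promoter in 10, on the Fgfr2 promoter in 7 and on the Spry1 promoter in 2. The genes lower at E15.5 thus included promoters rich and poor in CG.

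The stages were compared first, E15.5 against E12.5 with genotype in the fit. H3K27me3 was lower at E15.5 at 4 of the 16 FGF genes tested: the receptor gene Fgfr3 (3.85-fold), the intracellular factor Fgf11 (2.37-fold), and the paracrine ligands Fgf10 (2.17-fold), which drives limb and lung budding, and Fgf18 (2.08-fold), which acts in bone and lung growth. None was called higher. Among the 2492 genes tested, 21.8% were called lower and 3.69% higher (edgeR quasi-likelihood test, Benjamini-Hochberg adjusted p below 0.05), so 4 of 16 is close to the background. The median log2 change was -0.27 for the 16 FGF genes and -0.29 for all genes.

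Fgfr3, a receptor found in ventricular zone progenitors and astrocytes, had normalised counts of 295, 310.3 and 307 in E12.5 WT and 273, 269 and 309.8 in E12.5 KO. At E15.5 the counts were 31.1, 42.2 and 135 in WT and 102, 71.05 and 68.4 in KO. All 6 E15.5 libraries lay below all 6 E12.5 libraries, and E15.5 WT replicate 3 was the highest of them. The log2 change was -1.95 (SE 0.285, 95% interval -2.56 to -1.34, adjusted p 0.000395, edgeR). Its intervals also shortened, from 12.3 kb (WT) and 13.1 kb (KO) of covered bases at E12.5 to 5.87 kb and 6.79 kb at E15.5.

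Fgf11 had normalised counts of 270.3, 337 and 303 in E12.5 WT and 219, 305 and 408 in E12.5 KO. At E15.5 it had 96.85, 135 and 163 in WT and 144, 119 and 117 in KO. No E15.5 library reached the lowest E12.5 library. The log2 change was -1.25 (SE 0.198, 95% interval -1.67 to -0.82, adjusted p 0.000742, edgeR).

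Fgf18 had 104, 142 and 143 normalised counts in E12.5 WT, 67.4, 109.7 and 132.5 in E12.5 KO, 45.0, 58.3 and 50.3 in E15.5 WT, and 56.75, 54.2 and 66.2 in E15.5 KO. The stages did not overlap, although E12.5 KO replicate 1 was close to the highest E15.5 library. The log2 change was -1.06 (SE 0.223, adjusted p 0.00473, edgeR). Fgf10 had 146, 198 and 156 in E12.5 WT, 60.01, 73.5 and 106 in E12.5 KO, 31.1, 42.2 and 74.5 in E15.5 WT, and 49.5, 53.0 and 60.9 in E15.5 KO. Its E12.5 KO and E15.5 libraries overlapped. The log2 change of Fgf10 was -1.12 (SE 0.284, adjusted p 0.0119, edgeR).

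Fgfr2, the receptor that binds Fgf10 in its epithelial isoform, could not enter that fit because it was not called in E15.5 WT replicates 1 and 2. It had 361, 331 and 315 normalised counts in E12.5 WT and 340.5, 256 and 378 in E12.5 KO. At E15.5 it had 29.5 in WT replicate 3 and 46.6, 27.7 and 34.6 in KO. Every E15.5 value was far below every E12.5 value. Within the KO libraries alone, a comparison added after these values were seen, the log2 change was -3.17 (SE 0.363, 95% interval -3.90 to -2.44, 8.98-fold, adjusted p 5.58e-09, edgeR). The covered bases at Fgfr2 were 26.9 kb in WT and 20.5 kb in KO at E12.5 and 4.67 kb in KO at E15.5. At E12.5 intervals ran from about the start site, chr7:130266808, into the gene. Separate intervals lay upstream of it in E12.5 WT replicates 2 and 3 and E12.5 KO replicate 3. At E15.5 what was left lay inside the gene, within chr7:130259001-130266800. An interval lay on the Fgfr2 promoter printed above in 6 of 6 E12.5 libraries and 1 of 6 E15.5 libraries. These numbers depend on the edges of 200 bp windows. In E12.5 WT replicates 1 and 3 and E15.5 KO replicate 1 an interval ended at 130266800, just inside the promoter. In E15.5 KO replicate 3 it ended at 130266400, just short of it.

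**Figure D2:**
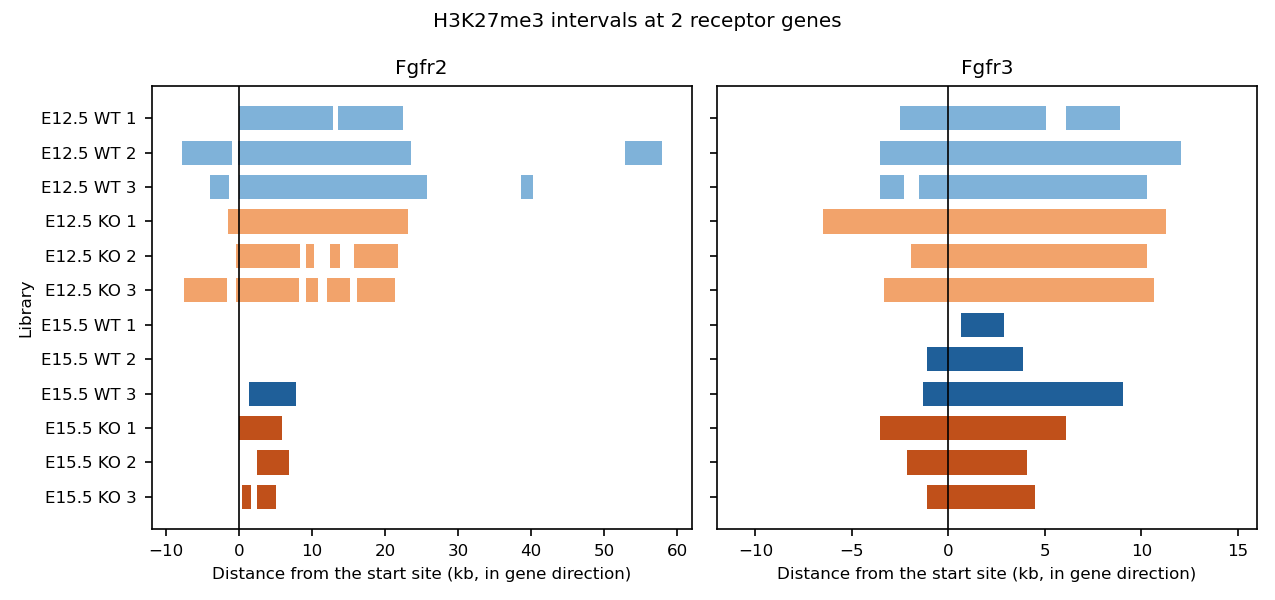
Deposited intervals (bars) at Fgfr2 and Fgfr3 in each of the 12 libraries, by distance in kb from the annotated start site in the direction of the gene; colours mark the 4 groups. At Fgfr2 the E15.5 WT replicates 1 and 2 have no bar and the other E15.5 bars are short, and at Fgfr3 the E15.5 bars are shorter than most E12.5 bars.

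The depth of the libraries differed between the stages in WT, with means of 0.432 at E12.5 and 0.118 at E15.5, and little in KO, with 0.243 and 0.247. In KO, Fgfr2 and Fgfr3 were called lower at E15.5, Fgfr4 was not (-0.68, adjusted p 0.403, edgeR), and Fgfr1 had no interval. The part of depth in these differences was not tested. Fgf2, a mitogen for neural progenitors, was likewise called in all 6 E12.5 libraries and in 1 of 3 E15.5 WT libraries. Its values were low throughout, at 59.8, 45.8 and 37.3 (E12.5 WT), 41.6, 21.0 and 52.35 (E12.5 KO), 19.1 (E15.5 WT replicate 3) and 21.8, 31.3 and 21.1 (E15.5 KO). Fgf2 and Fgfr2 were the FGF genes called in all 6 E12.5 libraries and in at most 1 of 3 E15.5 WT libraries. They were 2 of 32 FGF genes (6.25%), against 268 of 20665 autosomal genes (1.3%). Only genes called in all 6 E12.5 libraries could show this pattern, which were 20 FGF genes and 3140 of all autosomal genes.

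**Figure D3:**
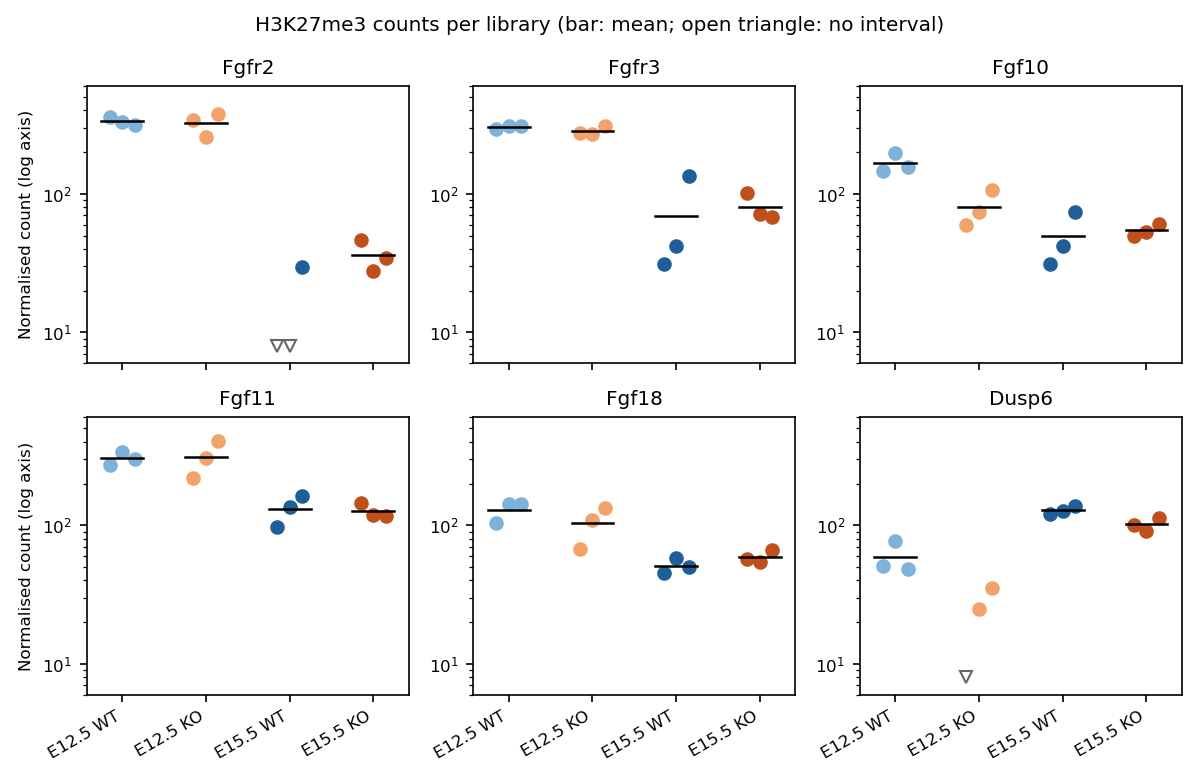
Normalised H3K27me3 count per library (log axis) at 6 FGF genes in the 4 groups. A bar marks the mean where every library of the group has an interval, and open triangles mark libraries with none. Fgfr2, Fgfr3, Fgf11 and Fgf18 lie lower in the E15.5 groups, Fgf10 is high mainly in E12.5 WT, and Dusp6 lies higher at E15.5.

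Dusp6, the phosphatase that inactivates ERK, went the other way. It had 51.0, 77.4 and 48.7 normalised counts in E12.5 WT, no interval in E12.5 KO replicate 1, and 24.8 and 35.3 in the other E12.5 KO libraries. At E15.5 it had 121, 127 and 137 in WT and 100.4, 91.5 and 114 in KO. Every E15.5 library was above every E12.5 library that had an interval. In WT alone the log2 change was 1.10 (SE 0.272, adjusted p 0.0229, edgeR), and the gene was not tested over all 12 libraries because of the uncalled library. In the 2 alternatives that could test it over both genotypes, its log2 change was 1.38 without E12.5 KO replicate 1 and 1.70 with that library entered at 0. The second value rests on a filled-in count, since a library with no interval has no count.

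The other 12 FGF genes in the 12-library fit did not pass the threshold and ranged from -0.68 (Fgf21, adjusted p 0.0669) to 0.49 (Spry4, adjusted p 0.109, edgeR). Fgf8 itself had 4168, 3672 and 3164 normalised counts in E12.5 WT, 3024, 3945 and 3781 in E12.5 KO, 3169, 2542 and 2801 in E15.5 WT and 2649, 3538 and 2967 in E15.5 KO. The stages overlapped, and its log2 change was -0.30 (95% interval -0.57 to -0.03, adjusted p 0.09, edgeR). The calls upward depended on the scaling. With TMM factors, which centre the fold changes of most genes on 0, the median of all genes moved from -0.29 to -0.01, and 4 FGF genes were then called higher: Spry4 (0.80), Fgf15 (0.74), Etv5 (0.65) and Fgf9 (0.35). The 4 lower genes were called under both. The shares of all genes with TMM were 20.1% lower and 19.7% higher. DESeq2 with its own size factors also called 4 FGF genes lower and 4 higher, against 22.6% and 23.2% of all genes.

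**Figure D4:**
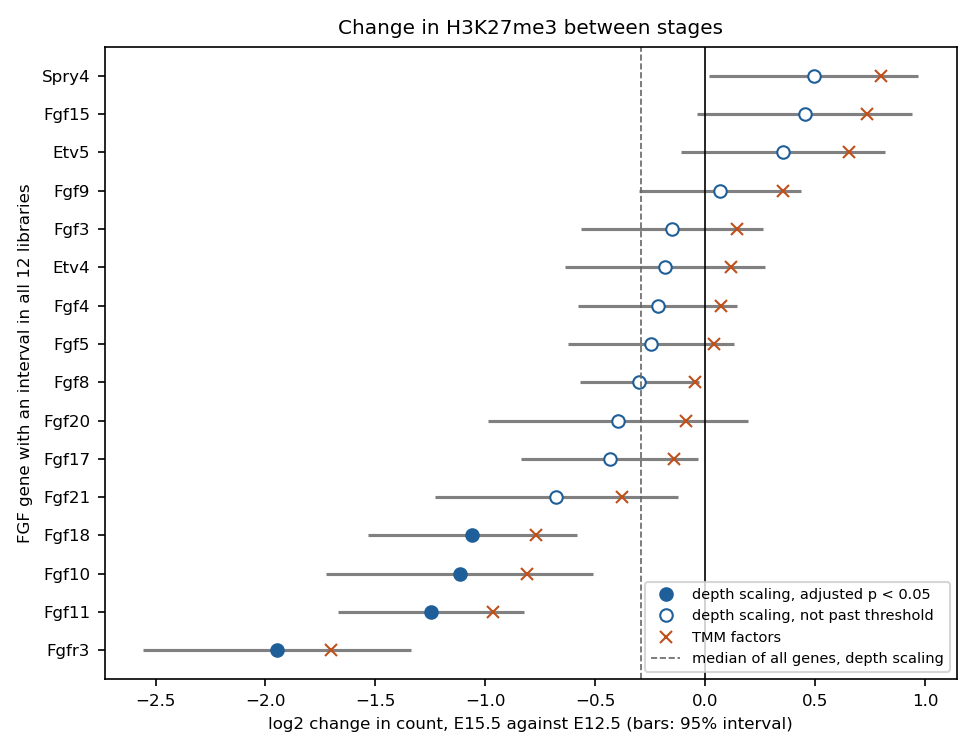
Log2 change in H3K27me3 count at E15.5 against E12.5 for the 16 FGF genes called in all 12 libraries (circles with 95% intervals, depth scaling; filled where the adjusted p is below 0.05; crosses, TMM factors). Fgfr3, Fgf11, Fgf10 and Fgf18 lie left of the dashed median of all genes (-0.29), and Spry4, Fgf15, Etv5 and Fgf9 right of 0.

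Each genotype was then examined by itself, also added after the data were seen. In WT, 7 of 17 FGF genes were called lower at E15.5, against 35.8% of 2624 genes, and 1 higher, Dusp6, against 1.71%. The 7 were Fgfr3 (-2.07), Fgf10 (-1.72), Fgf18 (-1.34), Fgf11 (-1.19), Fgf20 (-0.95), Fgf17 (-0.69) and Fgf4 (-0.47), and the median of all genes was -0.58. In KO, 3 of 20 were called lower (Fgfr2, Fgfr3 at -1.83 and Fgf11 at -1.30), against 5.49% of 3003 genes with a median of -0.05, and 0 were called higher, against 4.13%. Fgf18 (-0.80, adjusted p 0.233) and Fgf10 (-0.55, adjusted p 0.478, edgeR) did not pass in KO. The WT libraries of the stages did not overlap at 8 FGF genes lower at E15.5 (52.0% of all genes) and 1 higher (3.93%). The KO libraries did not overlap at 4 lower (12.4% of all genes), Fgfr2, Fgfr3, Fgf11 and Fgf18, and 2 higher (11.4%), Spry4 and Etv5.

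The loss of Ezh2 was then addressed by comparing KO with WT at each stage. At E12.5, 0 of 20 FGF genes passed the threshold, against 4.04% of 3140 genes called lower and 0.0% called higher (edgeR). At an unadjusted p under 0.05, which 28.8% of all genes had, 4 FGF genes were lower: Fgf10 (-1.07, adjusted p 0.117), Fgf12 (-0.93), Fgf15 (-0.85) and Fgf9 (-0.73). With depth scaling 19 of the 20 log2 changes were below 0, with a median of -0.44 against -0.57 for all genes. With TMM factors the median of all genes was -0.05, 8 changes of the FGF genes were below 0 and 12 above, and 0 were called (1.21% of all genes lower, 0.287% higher). DESeq2 called 1, Fgf11 (0.61 higher in KO, adjusted p 0.016), against 3.06% of genes lower and 2.29% higher. The direction of most FGF genes at E12.5 therefore depended on the scaling.

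The E12.5 KO libraries lay below all E12.5 WT libraries at 3 genes, Fgf10, Fgf9 and Fgf15, against 33.0% of all genes (0 FGF genes and 0.35% of all genes lay above). Fgf9, which promotes progenitor growth in several organs, had 736, 890 and 850.5 normalised counts in WT and 353, 495 and 645 in KO. Fgf15, which is expressed in the embryonic brain, had 97.5, 122 and 109 in WT and 60.01, 44.85 and 79.1 in KO. The E12.5 KO libraries also differed among themselves, with replicate 3 the highest at 19 of the 20 genes and replicate 1 the lowest at 14. Without E12.5 KO replicate 3, 7 FGF genes were called lower in KO (Fgf20 -1.35, Fgf10 -1.32, Fgf12 -1.25, Etv4 -1.12, Spry4 -1.10, Fgf15 -1.08 and Fgf9 -0.96), as were 28.6% of all genes, with 0.0636% higher.

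At Fgf8, the gene with the densest mark, the difference with depth scaling was small beside its error. Fgf8 had a log2 difference of -0.03 at E12.5 (95% interval -0.57 to 0.51) and 0.11 at E15.5 (-0.23 to 0.44). Fgfr2 (-0.05, -0.73 to 0.64) and Fgfr3 (-0.10, -0.77 to 0.57) had similar values at E12.5, and their intervals include changes in either direction up to these bounds. These values lay above the median of all genes with depth scaling, -0.57. With TMM factors the E12.5 values were 0.493 for Fgf8, 0.493 for Fgfr2 and 0.449 for Fgfr3, against a median of -0.049. With DESeq2 they were 0.543, 0.545 and 0.509, against a median of 0.015. None of the 3 genes was called with either. In simulated counts with 200 of 3140 genes changed 2-fold, the edgeR test with depth scaling at E12.5 recovered 10.5% of them.

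At E15.5, 0 of 17 FGF genes passed the threshold, against 0.0742% of 2695 genes called lower and 0.408% higher (edgeR). An unadjusted p under 0.05 was reached by 0 FGF genes and by 11.2% of all genes. The log2 differences ran from -0.69 (Fgf15, 95% interval -1.40 to 0.03) to 0.30 (Etv5). TMM factors and DESeq2 also called 0, against 0.0742% lower and 0.557% higher with TMM and 0.965% lower and 1.82% higher with DESeq2. The KO libraries lay below all WT libraries at Dusp6 and Etv4 (8.09% of all genes) and above them at 0 FGF genes (11.1%). Fgf15 overlapped, at 96.85, 145 and 180.3 normalised counts in WT and 109, 98.75 and 60.9 in KO. In simulated counts with 200 of 2695 genes changed 2-fold, 32% were recovered.

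**Figure D5:**
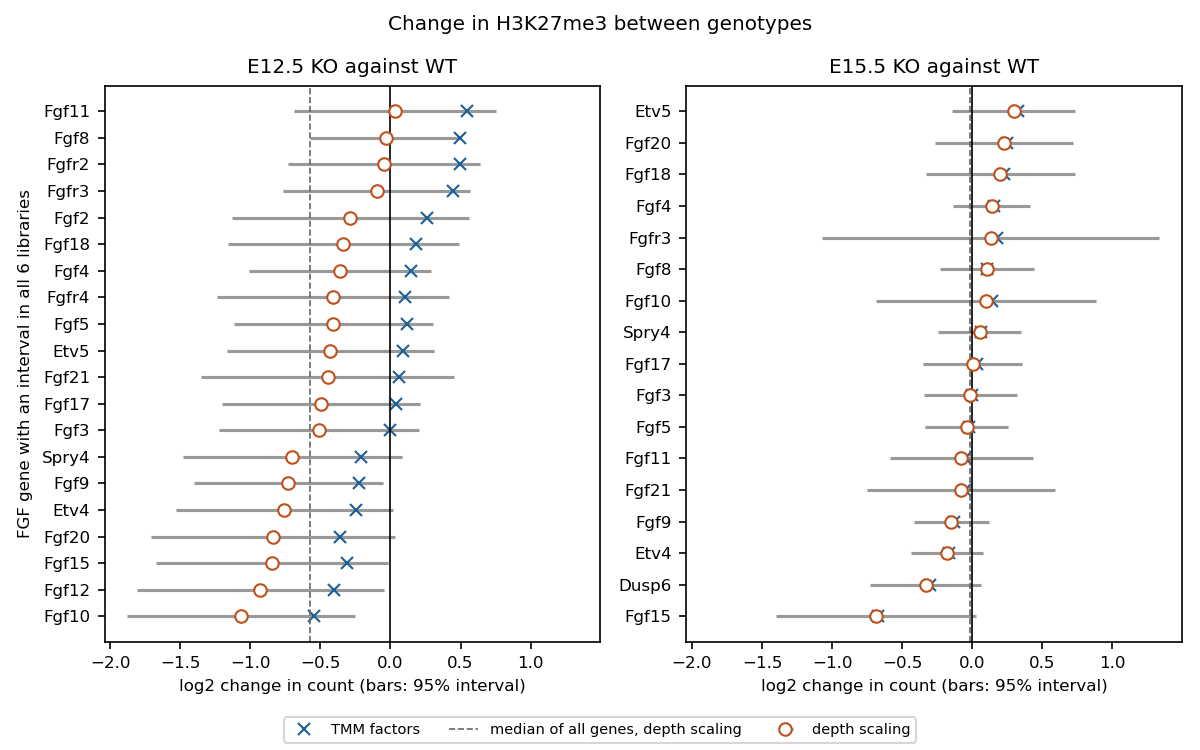
Log2 change in H3K27me3 count in KO against WT at E12.5 (20 FGF genes) and at E15.5 (17), with 95% intervals (circles, depth scaling; crosses, TMM factors; dashed line, median of all genes with depth scaling). At E12.5 the circles lie around the shifted median of -0.57 while the crosses straddle 0, and at E15.5 circles and crosses nearly coincide around 0.

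Spry1, an intracellular inhibitor of receptor tyrosine kinase signalling, was the FGF gene whose presence followed genotype at E15.5, and no FGF gene's did at E12.5. It was called in 3 of 3 E15.5 KO libraries and in 0 of the other 9, within chr3:37639201-37643600. The interval lay on the promoter and the gene body in replicates 1 and 2 and inside the gene body in replicate 3. Among all genes, 0.416% were called in all E15.5 KO and no E15.5 WT library, and 0.0242% in all 3 E15.5 KO libraries and none of the other 9. The intervals were weak, with counts of 21, 17 and 12 and normalised counts of 30.6, 20.5 and 9.03. No FGF gene showed the reverse at E15.5 (0.0145% of all genes), and at E12.5 none was confined to WT (0.208% of all genes were called in 3 WT and 0 KO libraries) or to KO (0.0%). Each E15.5 KO library was deeper than every E15.5 WT library, and the part of depth in this pattern was not tested. When the lowest 25% of scores in each library were left out, or all lists were cut to 5008 intervals, Spry1 dropped out and Fgf2 took its place as the gene called in every E15.5 KO and no E15.5 WT library. Without E15.5 WT replicate 3, Fgf2, Fgfr2 and Spry1 had that pattern.

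Over both stages together, 0 of 16 FGF genes differed between the genotypes (edgeR). Unadjusted p-values were under 0.05 for Fgf15 (-0.76), Etv4 (-0.47) and Fgf9 (-0.44), 3 of 16 genes against 21.1% of all genes, and DESeq2 and TMM factors called 0. Among all genes 0.923% were lower and 0.0401% higher, with 1.97% and 2.13% under TMM and 4.53% and 4.17% under DESeq2. The difference between the genotype effects at the stages was also tested directly, and 0 of 16 passed. Fgf10 (1.17, adjusted p 0.144) and Fgf20 (1.07, adjusted p 0.168, edgeR) had an unadjusted p under 0.05, as had 27.5% of all genes, and the median of all genes was 0.61. Among all genes 0.0% were called lower and 0.562% higher, with 0.0% and 0.241% under TMM and 0.201% and 1.52% under DESeq2, which called 0 FGF genes. Without E12.5 KO replicate 3, 8 FGF genes were called higher, namely Fgf3, Fgf4, Fgf9, Fgf10, Fgf20, Spry4, Etv4 and Etv5, as were 38.4% of all genes.

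Other genes of the pathway were read from a list of 53 that included further ligands, co-receptors, adaptors, kinases, heparan sulphate enzymes and targets. Of these 53 genes, 13 were called in all 12 libraries and 21 in none. Among the 20665 autosomal genes the numbers were 2492 (12.1%) and 12653 (61.2%). That background leaves out chromosome X, where 6 of the 53 lie. Between the stages, 2 of 11 tested genes were called lower at E15.5, the receptor-binding membrane proteins Flrt2 (-1.72, adjusted p 0.000279) and Flrt1 (-1.18, adjusted p 0.00645). Another 2 were called higher, the ERK phosphatase Dusp5 (1.19, adjusted p 0.00284) and the cell cycle gene Ccnd1 (0.59, adjusted p 0.0407, edgeR). Among all genes 21.8% were called lower and 3.69% higher. With TMM factors 2 of the 11 were called lower and 3 higher, against 20.1% and 19.7% of all genes. The gene added by TMM was Spred3 (0.525, adjusted p 0.00998, edgeR). Dusp5, like Dusp6, lay higher in all 6 E15.5 libraries (72.8 to 100.5 normalised counts) than in the 6 E12.5 libraries (21.0 to 64.4). Flrt2 lay lower, at 21.8 to 52.0 against 64.9 to 143. Between the genotypes 0 of these genes passed at either stage or over both, and with TMM factors Sulf1, a heparan sulphate sulphatase, was called over both stages (0.93, adjusted p 0.0436, edgeR).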

How the data were processed

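Bulk H3K27me3 CUT&Tag of MGE gave 1 list per library for 3 libraries in each of 4 groups, with groups and biological replicate numbers taken from the labels. Per the submitters' processing notes, cutadapt, Bowtie2, SAMtools, Picard, deepTools and SICER were used with GRCm38/mm10. Their settings are not given in the sources used here. The deposited lists hold, per interval of 200 bp windows, a whole-number count that the authors did not normalise. They also hold a score deposited by the authors, which equalled the negative natural log of a Poisson probability in single-window intervals, and the depth was solved from these. That depth is proportional to total reads is an assumption.

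Counts were summed per gene over autosomal protein-coding genes with an interval in every library of a comparison. They were tested with edgeR 4.0.16 (quasi-likelihood test, library sizes proportional to depth, Benjamini-Hochberg adjustment over all genes fitted, threshold 0.05) in R 4.3.3. A gene without an interval in any one of these libraries is outside the test. Intervals around a value are 95% intervals of the fit. They give the uncertainty of the estimated change from the spread between these libraries, and are not a range of library values. Python 3.11.15 with numpy 2.4.6 and pandas 2.3.3 was used otherwise. The test was checked on simulated data, in which genes varied independently and as many rose as fell. No shift was shared by the genes of a library. Alternatives were TMM factors, DESeq2 1.42.0, other gene windows and overlaps, higher count and score minimums, inclusion of chromosome X, a block for the replicate number, and omission of single libraries. A further alternative took genes called in most libraries of each group and entered uncalled libraries at 0. WT alone and KO alone were added after the data were seen.

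The genes and lists were chosen with earlier results of these data known. Full values are given for FGF genes with an adjusted p below 0.05 in any of 5 comparisons, or called in all libraries of 1 group and none of another. Other pathway genes are named where called, and Fgfr2, Fgf2, Fgf8, Fgf9, Fgf15 and Dusp6 were described after their values were seen.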

Additional observations from a re-analysis of the deposited data

How the results depend on the processing

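Over both genotypes, Fgf11 and Fgf10 were called lower at E15.5 in 24 of 24 alternatives and Fgfr3 and Fgf18 in 23 of the 23 that tested them, whereas Fgf10 and Fgf18 lost their call in KO alone. The number of FGF genes called between the stages, 4, became 8 with TMM factors, 8 with DESeq2, 8 in WT alone and 2 where covered bases differed by at most 1.5-fold, a setting that tested 12 genes. It ranged from 4 to 8 over the left-out libraries, with 8 without E12.5 KO replicate 1 (Fgf8, Fgf17 and Fgf21 lower and Dusp6 higher in addition). The 0 calls between genotypes at E12.5 became 1 with DESeq2 and ranged from 0 to 7 over the left-out libraries, and the 0 differences between the genotype effects ranged from 0 to 8, E12.5 KO replicate 3 being the omitted library at both maxima. Every alternative gave 0 at E15.5 and over both stages. The number of FGF genes called in every library was 16 to 17 over the left-out libraries, and the number whose presence followed genotype at a stage was 1 to 3.

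Same-numbered WT and KO libraries deviated with correlations of 0.019 to 0.226 at E12.5 and -0.354 to -0.204 at E15.5, so the numbers were not taken as pairs. With the replicate block, the numbers of FGF genes called were 0, 0, 0, 0 and 4, as without it. Among all genes the block moved the lower calls at E12.5 from 127 to 298 and those between the stages from 544 to 343, the calls between the genotypes at E15.5 from 13 to 0 and over both stages from 24 to 5, and the higher calls of the difference from 14 to 52.

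Over these settings, lower calls among all genes at E12.5 ranged from 6 (genes called in most libraries, uncalled at 0) to 900 (without E12.5 KO replicate 3). Higher calls ranged from 0 to 72 (DESeq2). At E15.5 lower calls ranged from 0 to 26 and higher calls from 0 to 49, over both stages from 0 to 113 and from 0 to 104, and for the difference from 0 to 5 and from 0 to 957. Between the stages over both genotypes they ranged from 230 to 891 and from 42 to 577, with 939 and 45 in WT alone and 165 and 124 in KO alone. Of 1829 results of single FGF genes under alternatives, 0 reversed a call, 2 lost one, 30 gained one and 130 changed sign with neither value past the threshold, 68 of them with TMM or DESeq2. The cause of these shifts was not tested. Power in the simulated counts was limited, with 10.5% of 2-fold changes recovered at E12.5 and 32% at E15.5. For the difference between the genotype effects 6% were recovered. Recovery was higher in the comparisons that pooled libraries, at 61% between the genotypes over both stages and 68.5% between the stages. The simulated libraries held no shift shared by their genes, so these shares do not describe counts in which whole libraries move together. Intervals that were not called carry no count.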
